A study of Mus musculus with 8 samples.

Results

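The matrix proteases and their tissue inhibitors were taken from the gene table by name: protein-coding genes called Mmp, Timp, Adam, Adamts or Adamtsl with a number. The rule gave 83 of 54532 genes, made up of 22 matrix metalloproteinases (MMPs), 4 tissue inhibitors of metalloproteinases (TIMPs), 33 ADAMs, 19 ADAMTS proteases and 5 ADAMTS-like genes (ADAMTSLs). Mmp1a carries such a name but is listed as a polymorphic pseudogene, had no count in any library and was left out. RNA-seq was done on endothelial cells (ECs) of the lung of wild-type (WT) C57BL/6J mouse pups at postnatal day 14. Normoxia pups had stayed in room air (21% O2), and hyperoxia pups had stayed in 80% O2 since postnatal day 0, a mouse model of bronchopulmonary dysplasia. Each group held 4 libraries, and oxygen is the only difference between the groups in the labels. ECs were obtained by removing CD45+ leukocytes from the lung digest and then holding cells on CD31 beads, so RNA of other lung cells that passed both steps was counted too.

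MMPs are zinc enzymes that cut collagens, elastin and basement membrane. TIMPs are small secreted proteins that occupy the zinc site of an MMP and stop it, and Timp3 also blocks several ADAM and ADAMTS enzymes and stays bound to the matrix. ADAMs sit in the cell membrane and release the outer part of other membrane proteins, ADAMTS enzymes cut proteoglycans, procollagen and von Willebrand factor, and ADAMTSLs lack the protease part and bind microfibrils. In the growing lung these families remodel the matrix around vessels and septa.

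The zinc-binding signature is shown because it marks the catalytic site that the proteases share and that inhibitors and ADAMTS-like genes lack. It was searched in frame in all coding transcripts of GENCODE M21 (GRCm38) as codons for His-Glu, His, Gly or Asn, and His at fixed spacing over 33 bases. Capitals mark the codons of these 5 residues.
Mmp2: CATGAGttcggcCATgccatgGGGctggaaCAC
Mmp14: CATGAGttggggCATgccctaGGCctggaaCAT
Mmp10: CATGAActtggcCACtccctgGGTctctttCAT
Mmp28: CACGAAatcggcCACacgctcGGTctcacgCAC
Adam12: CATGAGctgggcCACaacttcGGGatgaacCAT
Adam17: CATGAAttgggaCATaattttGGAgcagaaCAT
Adamts1: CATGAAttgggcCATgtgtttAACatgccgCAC
Adamts4: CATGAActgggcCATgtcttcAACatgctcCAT
Adamts2: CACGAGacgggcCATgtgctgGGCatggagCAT
The stretches are coding exon. Those of Mmp2 (chr8:92839279-92839311, plus strand) and Mmp14 (chr14:54437627-54437659, plus strand) lie in exons 8 and 5, and those of Mmp10 (chr9:7504858-7504890, plus strand) and Mmp28 (chr11:83444921-83444953, minus strand) in exon 5 of each gene. Those of Adam12 (chr7:133961158-133961190, minus strand) and Adam17 (chr12:21336732-21336764, minus strand) lie in exon 11 of each. The stretches of Adamts1 (chr16:85799191-85799545, minus strand), Adamts4 (chr1:171253210-171253915, plus strand) and Adamts2 (chr11:50775403-50776134, plus strand) are split by an intron, and the sequence is shown spliced.

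All 22 MMPs, 20 of 33 ADAMs and 18 of 19 ADAMTS genes held the signature, while the 4 TIMPs and 5 ADAMTSLs did not. Adamts1, Adamts4, Adamts9, Adamts15 and Adamts20 had an Asn codon in place of the Gly codon. The exception among the ADAMTS genes was Adamts8, where neither form matched, and the residue that differed was not recorded. The 13 ADAMs without it included Adam11, Adam22 and Adam23, which bind partner proteins at the cell surface and do not cut. Of the 33 bases, 27 were identical between Adamts1 and Adamts4, 29 between Mmp14 and Mmp16 and 30 between Adamts2 and Adamts14.

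Library totals ran from 16098086 to 18300730 counts. Members took 0.395% to 0.440% of the counts in normoxia and 0.534% to 0.584% in hyperoxia. The labels do not say whether the libraries of a group came from separate pups, so p-values measure only the spread between these libraries. The 16 pan-endothelial markers summed to 21609 to 22330 CPM (counts scaled to a common library size) in normoxia and 21410 to 23239 CPM in hyperoxia, and 5 of them were higher and 4 lower. On the first principal component of all genes hyperoxia 3 lay at 20.3 and the other hyperoxia libraries between 40.2 and 42.9, nearer to normoxia (-43.6 to -28.5), so results are also given without it.

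Of the 83 members, 13 had no count in any library. Another 19 had 51 counts or fewer over the 8 libraries, never exceeded 0.628 CPM and were not tested. The remaining 51 passed the filter on low counts, 42 of them above its limit in all 8 libraries. Mmp10, Mmp12, Adamts14, Adamts15, Mmp23 and Mmp25 passed through their hyperoxia values only, so the filter itself favoured a rise in them. Mmp23 and Mmp25 did not pass the threshold. The first 4 did, are among the 15 below and are described by value, with no p.

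Of these 51 members, 26 rose and 5 fell in hyperoxia at a Benjamini-Hochberg adjusted p under 0.05 in the quasi-likelihood test of edgeR. Over all 15564 genes tested 35.6% passed, 18.5% higher and 17.1% lower. A rise of at least 2-fold was called for 15 members, against 5.62% of all genes (6.98% in both directions). No member was called at least 2-fold lower by edgeR, at an unadjusted p, or by DESeq2, against 1.36% of all genes, and the lowest log2 fold change was -0.83. Without hyperoxia 3, 26 rose, 4 fell and 16 rose at least 2-fold. Over the 51 members the median log2 fold change was 0.51, and over all genes tested it was -0.004. The 2 groups did not overlap in 27 of the 51 members, against 35.4% of all genes. Among the 42 members above the limit in every library, 22 rose, 11 of them at least 2-fold, 5 fell and 15 did not pass.

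Family counts are given beside the shares over all genes tested, 18.5% higher and 17.1% lower. All 3 tested TIMPs and all 5 ADAMTSLs rose. Of 15 tested ADAMTS genes 10 rose and 5 did not pass, of 13 ADAMs 4 rose and 4 fell, and of 15 MMPs 4 rose, 1 fell and 10 did not pass. In all, 33.3% of the tested MMPs passed, near the 35.6% of all genes tested. The MMP count includes Mmp10 and Mmp12, and the ADAMTS count Adamts14 and Adamts15, which passed the low-count filter through hyperoxia only. Differences between families were not tested.

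**Figure D1:**
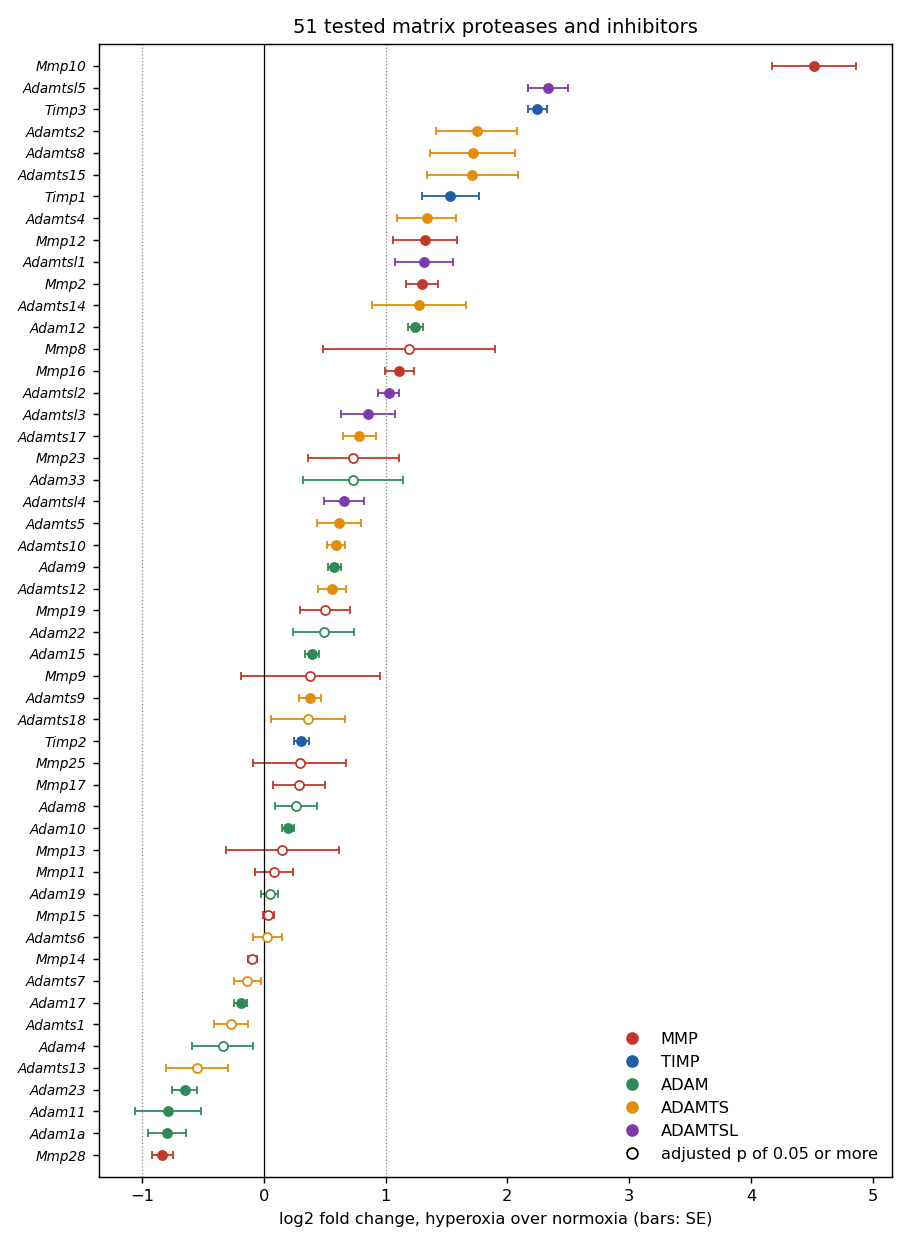
Log2 fold change (hyperoxia over normoxia, x axis) of the 51 tested members, with bars for the standard error (SE), colour for the family, and open circles for an adjusted p of 0.05 or more. Mmp10 lies apart at 4.52, all ADAMTSL and TIMP points lie right of 0, and Mmp28 is lowest at -0.83.

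Timp3 was the member with the smallest adjusted p. Timp3 (ENSMUSG00000020044, chromosome 10, 86300372 to 86349506, plus strand, GRCm38) had 260.3, 278, 336 and 322 CPM in normoxia 1 to 4, and 1419, 1467, 1376 and 1414 CPM in hyperoxia 1 to 4. Every hyperoxia library was far above every normoxia library, and the hyperoxia libraries lay close together. The log2 fold change was 2.25 (SE 0.08, edgeR adjusted p = 3.75e-08), which is 4.74-fold. Without hyperoxia 3 it was 2.26. Exons of Syn3 on the opposite strand cover 21.3% of the exon bases of Timp3, but Syn3 had 905 counts over the 8 libraries and Timp3 had 121259.

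Timp2, which besides blocking MMPs helps Mmp14 to activate pro-Mmp2, rose by much less. Timp2 had 406, 361, 387 and 351 CPM in normoxia and 453, 483, 431 and 495 CPM in hyperoxia. The groups stood apart by a narrow margin, with a log2 fold change of 0.31 (SE 0.06, edgeR adjusted p = 0.00288). Timp1, a secreted inhibitor that is induced in injured tissue, was scarce, at 2.63, 1.48, 1.17 and 1.99 CPM in normoxia and 5.94, 5.10, 4.46 and 5.49 CPM in hyperoxia. All hyperoxia libraries were higher, and the log2 fold change was 1.53 (SE 0.23, edgeR adjusted p = 0.00052). Timp1 lies inside Syn1 on the opposite strand, a gene with 38 counts in all. Timp4 had 16 counts over the normoxia libraries and 19 over the hyperoxia libraries and was not tested.

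Levels of different genes were compared in FPKM (fragments per kilobase of a gene, adjusted for library size). The Timp3 level was 0.307 to 0.439 of the Timp2 level in normoxia and 1.37 to 1.53 times the Timp2 level in hyperoxia. Timp3 thus held 23.0% to 30.0% of the summed TIMP FPKM in normoxia and 56.6% to 59.4% in hyperoxia. The summed FPKM of the 22 MMPs was 1.10 to 1.20 times that of the TIMPs in normoxia and 0.554 to 0.606 times that in hyperoxia. The MMP sum itself ran from 148 to 165 FPKM in normoxia and from 167 to 187 FPKM in hyperoxia, so it was also somewhat higher there.

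**Figure D2:**
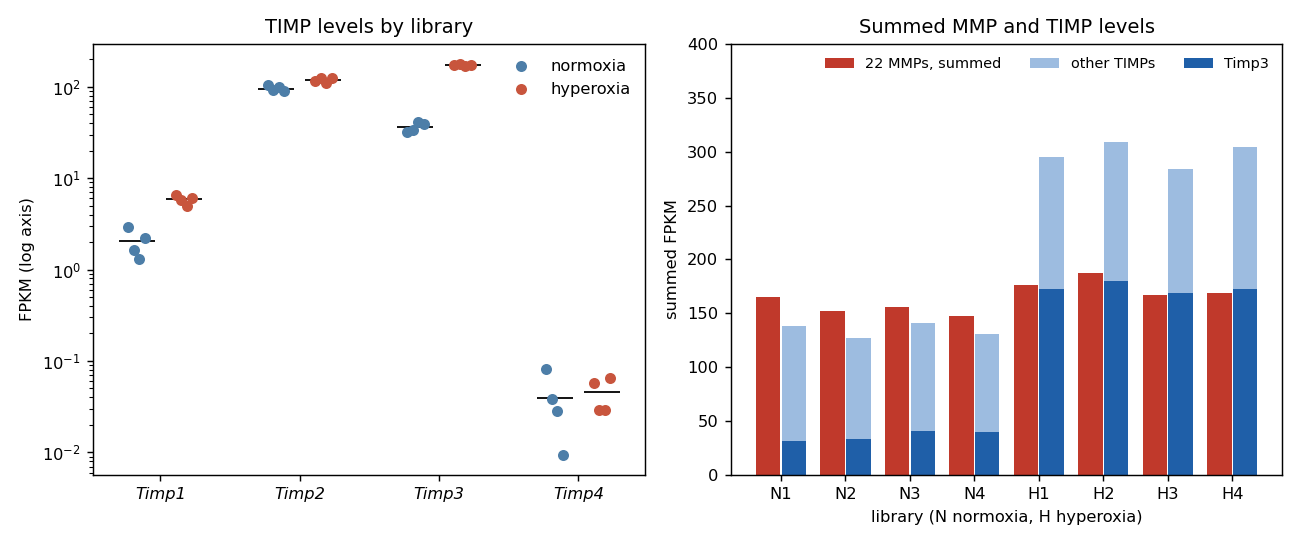
Left, FPKM of the 4 TIMPs (log axis) in each library, with a line at each group mean; right, summed FPKM of the 22 MMPs and of the TIMPs (bars from 0, Timp3 in dark blue) for normoxia (N1 to N4) and hyperoxia (H1 to H4). Timp3 passes Timp2 in hyperoxia, and the TIMP bar is taller than the MMP bar in the 4 hyperoxia libraries only.

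In normoxia Adamts1 had the highest level per length, at 227 ± 51.5 FPKM (SD, n = 4), followed by Timp2 at 95.8 ± 6.57 FPKM and Mmp15 at 61.8 ± 1.75 FPKM. Adam15 (47.8 ± 0.740 FPKM) and Mmp14 (47.4 ± 0.724 FPKM) came next and did not differ beyond their spread. Adamts10 (38.7 ± 3.22 FPKM), Adam10 (36.9 ± 1.02 FPKM) and Timp3 (36.4 ± 4.42 FPKM) could not be ordered either. In hyperoxia Adamts1 (189.6 ± 16.7 FPKM) and Timp3 (173 ± 4.70 FPKM) lay within their spread of each other, above Timp2 (119 ± 7.37 FPKM). Timp3 thus moved from rank 8 to rank 2, Mmp2 from rank 10 to rank 7 and Mmp28 from rank 9 to rank 14. Members at or above 10 FPKM numbered 13 in normoxia and 16 in hyperoxia.

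**Figure D3:**
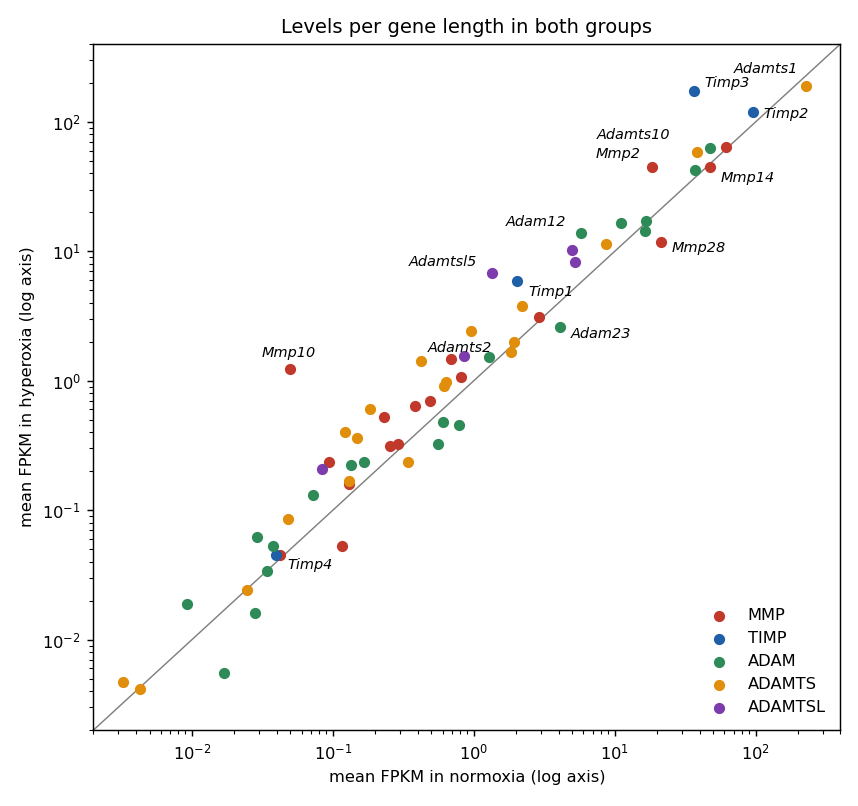
Mean FPKM of each member in normoxia (x) and hyperoxia (y), both on log axes, for members above 0 in both groups, with a line of equal level and colour for the family. Timp3, Mmp2, Adamtsl5 and Mmp10 lie above the line, Mmp28 and Adam23 below it, and Mmp14 and Adamts1 near it at high levels.

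The gelatinases Mmp2 and Mmp9 cut denatured collagen and type IV collagen of the basement membrane. Mmp2 (ENSMUSG00000031740, chromosome 8, 92827291 to 92853420) had 74.9, 57.4, 63.4 and 52.8 CPM in normoxia and 149, 187, 122 and 153 CPM in hyperoxia. The groups did not overlap, and hyperoxia 3 was the lowest of its group. The log2 fold change was 1.30 (SE 0.13, edgeR adjusted p = 3.78e-05), and 1.39 without hyperoxia 3. Mmp9 had 3.25, 1.59, 5.54 and 1.27 CPM in normoxia and 8.51, 2.89, 2.35 and 1.44 CPM in hyperoxia. Normoxia 3 and hyperoxia 1 were the high libraries, and the groups overlapped, with a log2 fold change of 0.38 (SE 0.57, edgeR adjusted p = 0.643). Without hyperoxia 1 its log2 fold change was -0.39. The summed level of 8 neutrophil markers was likewise highest in these libraries, with 49.3 CPM for normoxia 3 and 108 CPM for hyperoxia 1, against 11.3 to 25.5 CPM in the other normoxia and 23.6 to 28.0 CPM in the other hyperoxia libraries, and its part in the Mmp9 values was not tested. None of the 7 neutrophil markers tested passed in edgeR, while 1 had an unadjusted p under 0.05 and 1 passed in DESeq2. The neutrophil collagenase Mmp8 had the same high libraries, with 1.06 CPM for normoxia 3 and 3.14 CPM for hyperoxia 1, and did not pass (edgeR adjusted p = 0.217).

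The membrane-type MMPs work at the cell surface, and Mmp14 is the activator of pro-Mmp2. Mmp14 had 286, 287, 287 and 278 CPM in normoxia and 265, 269, 270.1 and 261 CPM in hyperoxia. Each hyperoxia library was below each normoxia library, but the log2 fold change was only -0.10 (SE 0.04, edgeR adjusted p = 0.0752), and it passed under upper-quartile scaling alone (adjusted p = 0.0353). Mmp15, the most abundant MMP per length, had a log2 fold change of 0.04 (SE 0.04, edgeR adjusted p = 0.573) with overlapping groups. Mmp16 rose from 6.74, 6.66, 5.48 and 5.03 CPM in normoxia to 12.8, 13.3, 13.4 and 12.1 CPM in hyperoxia, with log2 fold change 1.11 (SE 0.12, edgeR adjusted p = 4.49e-05). Of the 5 membrane-type MMPs tested, Mmp16 was the 1 that rose (all genes tested: 18.5% higher). Mmp2 transcripts thus more than doubled while those of Mmp14 did not rise.

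Mmp10 (stromelysin 2), which cuts proteoglycans and fibronectin and activates other MMPs, had the greatest fold change of all tested members. Mmp10 (ENSMUSG00000047562, chromosome 9, 7502352 to 7510240) had 2, 1, 2 and 1 counts in normoxia and 38, 42, 41 and 29 counts in hyperoxia. It was near the detection limit in every normoxia library and at 1.61 to 2.38 CPM in every hyperoxia library, including hyperoxia 3. The ratio of the counts summed over each group was 24.3, and the log2 fold change was 4.52 (SE 0.35). Mmp10 passed the low-count filter through hyperoxia only, so these values give a size and are no test. Mmp12, the macrophage elastase, had 0.735, 0.455, 0.895 and 0.663 CPM in normoxia and 1.88, 1.53, 2.06 and 1.44 CPM in hyperoxia, again without overlap. Its log2 fold change was 1.32 (SE 0.27). Mmp3 (stromelysin 1), too scarce to test, had no count in normoxia and 11 in hyperoxia.

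These genes belong to a cluster of 9 Mmp genes within 427072 bases of chromosome 9: Mmp13, Mmp12, Mmp1b, Mmp3, Mmp10, Mmp8, Mmp27, Mmp20 and Mmp7. Bases -100 to -31 before a RefSeq start (GRCm38.p6) are shown for the 3 genes just described, because MMP promoters of this cluster are known for AP-1 sites. Capitals mark the AP-1 motif.
Mmp10: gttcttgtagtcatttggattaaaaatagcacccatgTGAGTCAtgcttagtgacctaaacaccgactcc
Mmp12: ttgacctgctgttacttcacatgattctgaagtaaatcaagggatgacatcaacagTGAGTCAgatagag
Mmp3: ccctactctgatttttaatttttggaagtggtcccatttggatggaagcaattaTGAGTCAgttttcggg
The windows are chr9:7502242-7502311 (Mmp10), chr9:7347274-7347343 (Mmp12) and chr9:7445722-7445791 (Mmp3), all on the plus strand. The Mmp12 window belongs to a start 2993 bases inside the gene, and the window of its outer start held no such match. The motif searched was TGANTCA on both strands within 250 bases before a start. It stood before 1 or more starts of 7 of the 9 cluster genes, Mmp8 and Mmp27 being the others. Mmp12 and Mmp7 each also had a start without it. Counted per promoter and not per gene, it stood in 6.75% of all 32841 RefSeq promoters. Of the 7 genes, Mmp10 and Mmp12 had the values above, Mmp13 did not pass (edgeR adjusted p = 0.826) and Mmp1b, Mmp3, Mmp20 and Mmp7 were not tested. Promoters were found for 52 of the 83 members, and AP-1 motifs in 11 of their 57 promoters (19.3%). A match describes letters only.

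A fall past the threshold was seen in 5 members. Mmp28 (epilysin), a secreted MMP known from epithelium, had 90.4, 82.1, 80.1 and 77.8 CPM in normoxia and 40.0, 48.7, 53.3 and 43.4 CPM in hyperoxia. All hyperoxia libraries were below all normoxia libraries, with a log2 fold change of -0.83 (SE 0.09, edgeR adjusted p = 4.12e-05). It was singled out after its values were seen, as were Adam1a, Adam11 and Adam23. Exons of 1700020L24Rik (2081 counts) on the opposite strand cover 12.0% of the Mmp28 exon bases. While Mmp28 fell, 11 of 12 alveolar type 2 and 10 of 11 alveolar type 1 markers rose and 1 type 1 marker fell, and their part in the Mmp28 values was not tested.

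The sheddase ADAMs release growth factors and receptors from the membrane. Of 8 tested, 4 rose and Adam17 fell (all genes tested: 18.5% higher, 17.1% lower). Adam12, which can release heparin-binding EGF, changed most. Adam12 (ENSMUSG00000054555, chromosome 7, 133883199 to 134232146, minus strand) had 63.1, 55.1, 67.2 and 61.1 CPM in normoxia and 145, 147, 141 and 151 CPM in hyperoxia. Both groups were tight and far apart, with a log2 fold change of 1.24 (SE 0.06, edgeR adjusted p = 2.36e-07). Adam9 rose from 45.0 to 46.2 CPM in normoxia to 62.8 to 74.8 CPM in hyperoxia, with log2 fold change 0.58 (SE 0.06, edgeR adjusted p = 2.66e-05). Adam15, an abundant ADAM of ECs, went from 293 to 302 CPM up to 348 to 418 CPM, with log2 fold change 0.40 (SE 0.06, edgeR adjusted p = 0.000443).

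The 2 classic sheddases moved by small amounts in opposite directions. Adam10, which cuts Notch receptors and VE-cadherin, had 183, 177, 186 and 187 CPM in normoxia and 194, 226, 212 and 208 CPM in hyperoxia, a log2 fold change of 0.20 (SE 0.05, edgeR adjusted p = 0.0114). Adam17, the TNF-converting enzyme, had 122, 119.7, 111 and 119 CPM in normoxia and 101, 109.9, 104 and 98.0 CPM in hyperoxia, a log2 fold change of -0.19 (SE 0.05, edgeR adjusted p = 0.0126). Neither pair of groups overlapped, and both differences were well under 2-fold. Adam19 had a log2 fold change of 0.05 (SE 0.07, edgeR adjusted p = 0.648).

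Of the 4 tested ADAMs without the zinc signature shown above, Adam11 and Adam23 fell and Adam22 and Adam4 did not pass. Of the 9 with it, 4 rose, Adam17 and Adam1a fell and 3 did not pass (all genes tested: 18.5% higher, 17.1% lower). Adam23, which binds integrins, had 56.9, 81.4, 77.8 and 78.8 CPM in normoxia and 44.2, 51.2, 47.8 and 45.0 CPM in hyperoxia. The groups did not overlap although normoxia 1 was low, and the log2 fold change was -0.65 (SE 0.10, edgeR adjusted p = 0.00072). Adam11 had a log2 fold change of -0.79 (SE 0.27, edgeR adjusted p = 0.0437) with overlapping groups, and the call was lost on leaving out any library but hyperoxia 2 (adjusted p up to 0.112). Adam1a had 5.48 to 6.37 CPM in normoxia and 2.83 to 4.12 CPM in hyperoxia, a log2 fold change of -0.79 (SE 0.15, edgeR adjusted p = 0.00234). Its count is uncertain, since 63.7% of its exon bases are shared with Gm42878 and 24.0% with Mapkapk5 on the same strand.

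The proteoglycanases of the ADAMTS family cut versican and aggrecan. Of 6 tested, 5 rose and Adamts1 did not pass (all genes tested: 18.5% higher, 17.1% lower). The 5 include Adamts15, which passed the low-count filter through hyperoxia only. Adamts1, the most abundant member, had 968, 1518, 989 and 1389 CPM in normoxia and 897, 1105, 1005 and 1037 CPM in hyperoxia. Normoxia 2 and 4 were above all other libraries and the groups overlapped, with a log2 fold change of -0.27 (SE 0.14, edgeR adjusted p = 0.162). Adamts4 had 4.04, 5.75, 4.08 and 4.81 CPM in normoxia and 6.34, 14.7, 12.5 and 13.6 CPM in hyperoxia. Hyperoxia 1 was low in its group but above normoxia, and the log2 fold change was 1.34 (SE 0.24, edgeR adjusted p = 0.00156).

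Adamts8 had 1.16, 0.740, 0.559 and 0.939 CPM in normoxia and 2.91, 3.28, 1.32 and 3.66 CPM in hyperoxia, a log2 fold change of 1.71 (SE 0.35, edgeR adjusted p = 0.00303). Adamts15 had 1.47, 1.71, 1.40 and 0.497 CPM in normoxia and 5.25, 5.44, 2.12 and 3.83 CPM in hyperoxia, a log2 fold change of 1.71 (SE 0.37). In both genes hyperoxia 3 lay closest to normoxia, and without it the log2 fold changes were 1.95 and 1.93. Adamts9, which ECs express strongly, rose from 116 to 146 CPM in normoxia to 143 to 186 CPM in hyperoxia, with log2 fold change 0.38 (SE 0.09, edgeR adjusted p = 0.00838). Adamts5 had a log2 fold change of 0.62 (SE 0.18, edgeR adjusted p = 0.0216), and its call was lost on leaving out normoxia 1 or 4 or hyperoxia 2 or 4 (adjusted p 0.0516 to 0.0691).

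The procollagen N-proteinases Adamts2 and Adamts14 trim collagen before fibres form. Adamts2 had 6.43, 3.07, 3.52 and 2.82 CPM in normoxia and 16.7, 17.7, 6.70 and 11.9 CPM in hyperoxia. The groups stood apart, but hyperoxia 3 came close to normoxia 1, and the log2 fold change was 1.75 (SE 0.33, edgeR adjusted p = 0.00203) and 1.97 without hyperoxia 3. Adamts14 had 1.04, 0.854, 0.783 and 0.442 CPM in normoxia and 1.37, 1.76, 1.14 and 3.27 CPM in hyperoxia. Its log2 fold change was 1.28 (SE 0.38) and 0.87 without hyperoxia 4, and it was not past the threshold without that library or without normoxia 3 or 4. Adamts3, the other gene of this group, had 18 counts in normoxia and 33 in hyperoxia.

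Adamts10, which acts on fibrillin microfibrils, rose from 195 to 235 CPM in normoxia to 293 to 357 CPM in hyperoxia, with log2 fold change 0.59 (SE 0.08, edgeR adjusted p = 0.000181). Adamts17 and Adamts12 rose as well, by 0.78 and 0.56 on the log2 scale. Adamts13, which cuts von Willebrand factor, had 1.41, 2.22, 1.68 and 1.49 CPM in normoxia and 0.914, 1.08, 1.60 and 1.05 CPM in hyperoxia. The groups overlapped at hyperoxia 3, and the log2 fold change was -0.55 (SE 0.26, edgeR adjusted p = 0.123).

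Every ADAMTSL rose. Adamtsl5 (ENSMUSG00000043822, chromosome 10, 80339110 to 80348412, minus strand), which binds fibrillin, had 7.10, 4.55, 8.11 and 5.69 CPM in normoxia and 29.8, 31.2, 28.3 and 39.1 CPM in hyperoxia. The lowest hyperoxia library was more than 3 times the highest normoxia library, and the log2 fold change was 2.33 (SE 0.17, edgeR adjusted p = 3.02e-06). Adamtsl2, which binds fibrillin and a TGF-beta binding protein, had 44.8, 37.2, 37.6 and 41.7 CPM in normoxia and 75.5, 93.7, 75.9 and 82.9 CPM in hyperoxia, a log2 fold change of 1.02 (SE 0.08, edgeR adjusted p = 7.63e-06). Adamtsl1 rose from 0.773 to 1.35 CPM in normoxia to 2.11 to 3.22 CPM in hyperoxia, with log2 fold change 1.31 (SE 0.24, edgeR adjusted p = 0.00152). The log2 fold changes of Adamtsl4 and Adamtsl3 were 0.65 (edgeR adjusted p = 0.0103) and 0.85 (edgeR adjusted p = 0.0124), and in both the groups overlapped.

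Hyperoxia 3 was the lowest hyperoxia library in 14 of the 26 members that rose, and in 9 of the 15 that rose at least 2-fold. The share over all genes that rose was not counted. Hyperoxia 3 also lay nearest to normoxia on the first principal component of all genes, which does not give that share. These counts are therefore not read as a trait of the members. Hyperoxia 3 stood well below the others in Adamts2, Adamts8 and Adamts15, but not in Mmp10, Mmp12, Mmp16 or Adamtsl1. On leaving it out, the 15 members kept their calls, and Adamtsl3 was added (log2 fold change 1.01). Hyperoxia 3 was picked from these same data as nearer to normoxia, so these calls are no independent check.

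**Figure D4:**
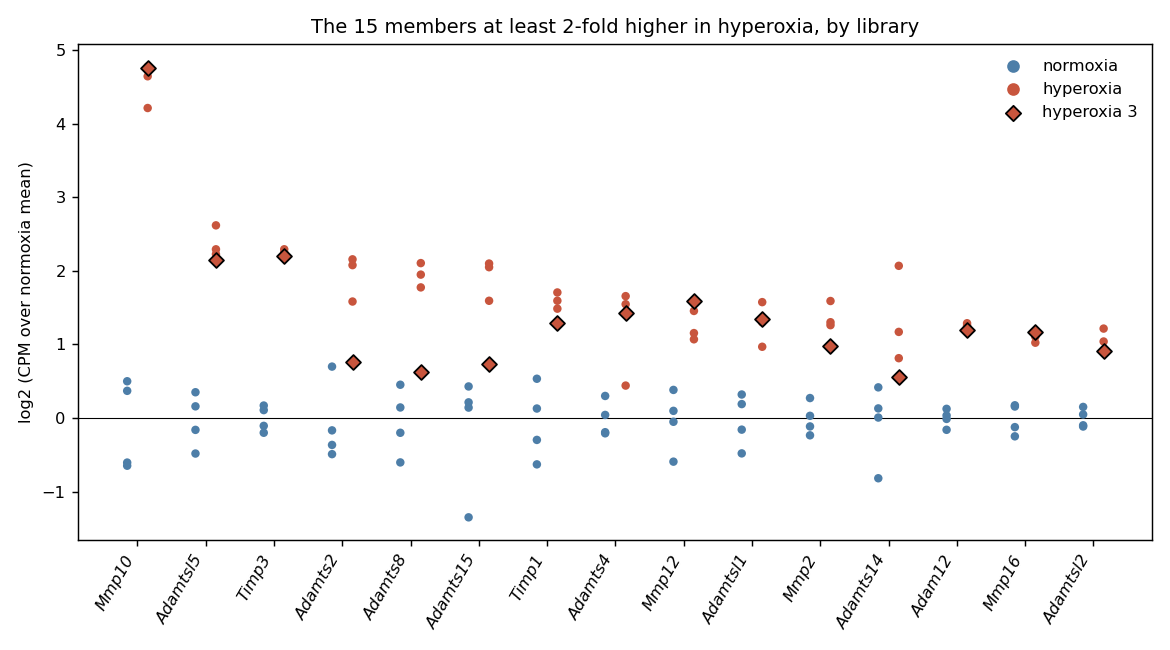
Log2 of CPM over the normoxia mean (y axis) in each library for the 15 members that rose at least 2-fold, with normoxia in blue, hyperoxia in red and hyperoxia 3 as a diamond. The diamond lies with the other hyperoxia points in Mmp10, Timp3 and Adam12 and well below them in Adamts2, Adamts8 and Adamts15.

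Markers of some other lung cell types, but not of all, moved with the group. Over all genes tested 18.5% were higher and 17.1% lower. The 12 fibroblast markers summed to 465 to 719 CPM in normoxia and 721 to 1435 CPM in hyperoxia, and 6 of 11 tested rose, or 10 without hyperoxia 3. The 12 mural and myofibroblast markers summed to 50.7 to 88.7 CPM and 108 to 189 CPM, and 7 of 11 tested rose. Hyperoxia 3 was the lowest hyperoxia library in both sums. Fibroblasts and mural cells are known sources of Timp3, Mmp2, Adamts2 and several ADAMTSLs, and the part of these markers in the member values was not tested. In bulk samples a change in the number of cells of a type and a change in RNA per cell cannot be told apart.

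The 12 alveolar type 2 markers summed to 466 to 652 CPM in normoxia and 1166 to 2957 CPM in hyperoxia, and 11 of them rose. Hyperoxia 3 was lowest of its group. The 11 type 1 markers, which include the EC gene Cav1, summed to 1950 to 2105 CPM and 1707 to 1902 CPM. That sum was lower in hyperoxia although 10 of the 11 rose and 1 fell, so it does not follow most of its markers. Both tested mesothelial markers of 6 rose, from sums of 0.552 to 2.14 CPM up to 3.95 to 11.9 CPM, and Muc16 was at 0 throughout. Of 11 tested macrophage and monocyte markers 3 rose and 1 fell, with sums of 186 to 349 CPM and 257 to 534 CPM. Of 3 tested airway markers 1 rose, with Krt5 at 0 throughout and sums of 58.4 to 79.9 CPM and 79.1 to 110 CPM. The 9 lymphocyte markers summed to 48.9 to 119 CPM and 63.1 to 103 CPM, and none passed in edgeR or DESeq2 or had an unadjusted p under 0.05. The part of these lists in the member values was not tested.

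A list of 22 genes that regulate these proteases was set beside the members. Of 21 tested, 11 rose and 1 fell, and 4 rose at least 2-fold, with 9 higher and 1 lower past the threshold without hyperoxia 3. Their median log2 fold change was 0.20. Over all genes tested 18.5% were higher, 17.1% lower and 5.62% at least 2-fold higher. Several of the regulators belong to the plasmin system, which activates pro-MMPs. Plau, the urokinase, had 9.61 to 11.8 CPM in normoxia and 23.8 to 32.2 CPM in hyperoxia, a log2 fold change of 1.48 (SE 0.11, edgeR adjusted p = 4.64e-06). Plat, the tissue plasminogen activator and 1 of the 3 most abundant regulators, had 126, 153, 136 and 172 CPM in normoxia and 208, 289, 274 and 311 CPM in hyperoxia, without overlap and with a log2 fold change of 0.88 (SE 0.12, edgeR adjusted p = 0.000335). Serpine2, a secreted inhibitor of serine proteases, rose by 2.03 on the log2 scale (SE 0.16, edgeR adjusted p = 6.72e-06).

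The proprotein convertase Pcsk6 and the ADAMTS-like protein Thsd4 rose by 1.08 and 1.15 on the log2 scale (edgeR adjusted p = 0.00287 and 0.00856). Furin, the convertase that activates Mmp14 and the ADAMs, rose by 0.41 (edgeR adjusted p = 4.57e-05). Rhbdf2, a rhomboid-like partner that carries Adam17 to the cell surface, rose from 94.3 to 110.4 CPM to 169.8 to 188 CPM, with log2 fold change 0.81 (SE 0.06, edgeR adjusted p = 3.84e-06), whereas Adam17 itself fell. Tspan14, a tetraspanin that escorts Adam10, was the regulator that fell, with log2 fold change -0.19 (edgeR adjusted p = 0.00296). The abundant regulators Bsg, which induces MMPs, and Pcsk5 had log2 fold changes of 0.00 and -0.16 and did not pass (edgeR adjusted p = 0.971 and 0.207).

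Of 24 known substrates 21 were tested, of which 14 rose and 2 fell, with a median log2 fold change of 0.58. Among all genes tested 18.5% were higher and 17.1% lower, with a median of -0.004. The proteoglycans Vcan and Bcan, substrates of the ADAMTS proteoglycanases, rose by 1.23 (edgeR adjusted p = 0.000115) and 1.04 (edgeR adjusted p = 0.023), and Acan was too scarce to test. The Bcan call was lost on leaving out normoxia 1 or 4 or hyperoxia 1 or 2 (adjusted p 0.0519 to 0.0642). The fibrillar collagen genes Col1a1 and Col1a2, substrates of Adamts2 and Adamts14, rose by 1.55 (edgeR adjusted p = 0.00134) and 1.16 (edgeR adjusted p = 0.00809), and Dcn, a small proteoglycan, by 1.71 (edgeR adjusted p = 0.0166). These 3 also stand in the fibroblast list, and the Dcn call was lost without hyperoxia 2 or 4 (adjusted p 0.051 and 0.0519). The syndecans Sdc1 and Sdc4, which sheddases release from the cell surface, rose by 1.55 (edgeR adjusted p = 0.000422) and 1.28 (edgeR adjusted p = 2.78e-07).

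Hbegf, the heparin-binding EGF that Adam12 and Adam17 can release, had 91.0, 98.3, 70.0 and 83.2 CPM in normoxia and 31.1, 29.3, 32.7 and 32.7 CPM in hyperoxia. It was lower in every hyperoxia library, with a log2 fold change of -1.45 (SE 0.10, edgeR adjusted p = 1.88e-06). That was the opposite direction to Adam12 and the same direction as Adam17, whose log2 fold change was -0.19. Among the 3 most abundant substrates, Col4a1, a chain of basement membrane collagen, rose from 8455 to 9280.1 CPM up to 12415 to 13164 CPM, with log2 fold change 0.50 (SE 0.05, edgeR adjusted p = 2.07e-05). Eln, the elastin gene, and Cdh5, the VE-cadherin gene that Adam10 cuts at the protein level, had log2 fold changes of 0.02 and -0.03 and did not pass (edgeR adjusted p = 0.91 and 0.658).

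**Figure D5:**
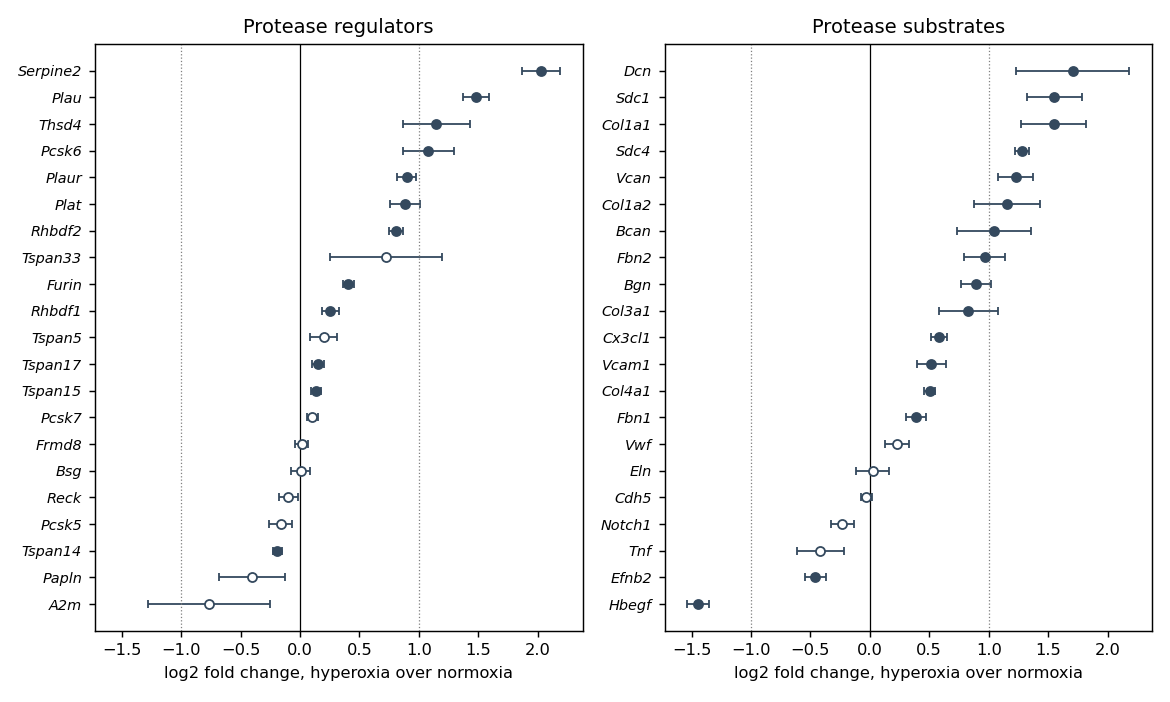
Log2 fold change (hyperoxia over normoxia, x axis) with SE for the tested genes of the regulator list (left, 21 genes) and the substrate list (right, 21 genes), with open circles for an adjusted p of 0.05 or more. Serpine2 and Plau lie highest among the regulators, and Hbegf lies alone at -1.45 among the substrates.

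The 13 members with no count were Mmp7, Mmp20, Adam2, Adam6a, Adam18, Adam20, Adam24, Adam25, Adam26a, Adam26b, Adam29, Adam34 and Adam39. Most of them are known from testis. Adam7 had no count in normoxia and 9 in hyperoxia, Mmp1b 0 and 3, and Mmp27 0 and 2, and of the other untested members with a count Adam5 had the most, 16 in normoxia and 29 in hyperoxia, after Adamts3. At this depth such genes give no comparison.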

How the data were processed

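Lung ECs of 4 normoxia and 4 hyperoxia samples were profiled by bulk RNA-seq, and groups follow the sample labels. The authors deposited gene counts and FPKM values for the same libraries. Per the submitters' processing notes, build mm10, HISAT2 2.0.5 and featureCounts 1.5.0-p3 were used, and the options for strand and multiply mapped reads are not given in the sources used here. Counts were tested in edgeR 4.0.16 (R 4.3.3; TMM, filterByExpr with minimum count 10, limit 0.566 CPM; quasi-likelihood test, group only) over 15564 genes with Benjamini-Hochberg adjustment. The thresholds were an adjusted p of 0.05 and, for a call of 2-fold, an absolute log2 fold change of 1. CPM are counts over TMM-scaled totals, and SEs follow from the F statistic. The script was tested on simulated counts. The study used DESeq2; DESeq2 1.42.0, limma 3.58.1 (voom, and log2 of FPKM plus 0.1), other scalings and filters, the replicate block and leave-one-out fits were alternatives. The fixed protein motif search was replaced by a search of coding sequence.

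Members, gene lists and tests were chosen with earlier results of these data known. Named were members past both thresholds with at least 1 CPM in the higher group, the TIMPs, the 3 highest in FPKM per other family, Mmp2, Mmp9, Mmp14, Adam10, Adam17, Adamts1, Adamts5 and Adamts13, and, in the regulator and substrate lists, the 3 most abundant genes and those past both thresholds. Other genes given with values were chosen after their values were seen. No library pair of a group agreed within counting noise (chi-square per degree of freedom 5.08 to 17.9). All 83 members were found in GENCODE M21, 82 with identical coordinates. Results on items withheld from the text are not reported here.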

Additional observations from a re-analysis of the deposited data

Results flagged for a closer look

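In 104 groups of 4 libraries examined for a single library far from the others, 5 were found, against 5.2 expected from chance at 1 in 20. Adam23 had 56.9 CPM in normoxia 1 and 77.8 to 81.4 CPM in the other normoxia libraries. Mmp14 had 278 CPM in normoxia 4 and 286 to 287 CPM in the others. In hyperoxia 3, Bsg had 252 CPM, and the other hyperoxia libraries had 281 to 284 CPM. Col1a2 had 59.5 CPM in normoxia 1 and 33.2 to 36.3 CPM in the others. Sdc1 was low in hyperoxia 3, with 20.7 CPM, while hyperoxia 1, 2 and 4 held 39.9 to 43.9 CPM.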

How the results depend on the processing

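Over the 16 alternatives 24 to 28 members rose, 4 to 6 fell and 12 to 17 rose at least 2-fold. Leaving out 1 library in turn gave 24 to 27, 4 to 5 and 13 to 16, and 0 to 1 members that fell at least 2-fold, the 1 being Adam11 (-1.05) without hyperoxia 2. Of 815 values of the 51 named genes, 780 kept direction and side of the threshold, 23 lost and 1 gained the call, and 11 reversed, each of a gene that had not passed. With 1 library left out, log2 fold changes ran from -0.0089 to 0.111 for Adam19 (reversed without normoxia 1) and from -0.386 to 0.903 for Mmp9 (reversed without hyperoxia 1). They ran from -0.0707 to 0.0554 for Bsg, reversed without normoxia 2 or 4 or hyperoxia 1, 2 or 4, and under upper-quartile scaling it was -0.016. For Eln they ran from -0.078 to 0.128, reversed without normoxia 2 or 4 or hyperoxia 4. The cause was not tested. With log2 of FPKM plus 0.1 the change of scarce genes is smaller by construction (Mmp10 3.14, Mmp12 0.80, Adamtsl1 0.75), and Adamts5 lost its call (adjusted p = 0.0524).

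Same-numbered libraries deviated from their group means with correlations of -0.14 to 0.119, over 0.1 in 1 of 4 pairs, so the numbers were not taken as a pairing. With the replicate block 25 members rose, 4 fell and 14 rose at least 2-fold, since Adam11 (adjusted p = 0.0531) and Adamts14 lost their calls. Depth limits the 19 untested members with a count, and 4 libraries a group limit small differences such as that of Mmp14.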
